A study of Mus musculus with 12 samples.

Results

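Embryonic stem cells (ES cells) were set against neural stem cells (NS cells) that lack a functional Nanog gene, on 3 microarrays of each, out of 12 arrays in the series. The members were chosen by sample label, and a probe was measured where its detection p-value was under 0.01 on at least 3 of these 6 arrays. That left 17027 of 45281 probes, of which 14743 carried a single gene symbol and stood for 9565 genes. The ES cells were labelled as E14Tg2A, a 129 mouse line, and grew in serum-free N2B27 medium with LIF, the GSK3 inhibitor CHIR99021 at 3 µM and the MEK inhibitor PD0325901 at 1 µM. This pair of inhibitors is known as 2i. The NS cells carried the same E14Tg2A label and were Nanog null, and no source used here gives their medium. Cell type, Nanog genotype and culture medium therefore cannot be told apart in any difference reported between the groups. The other 6 arrays held 3 induced pluripotent stem (iPS) samples made with mouse Nanog and 3 made with human Nanog, and they entered only the normalization and the estimate of spread.

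ES cells are the cultured counterpart of the naive epiblast of the blastocyst, and they can form every lineage of the embryo. Their identity rests on a network of transcription factors around Pou5f1 (Oct4), Sox2 and Nanog, which LIF and 2i hold in place by driving STAT3, freeing beta-catenin and shutting off ERK. NS cells in adherent culture resemble radial glia, the progenitors of the developing brain. They are commonly kept dividing with FGF2 and EGF, use Sox2 together with other SOX, POU and nuclear factor I proteins, and are primed towards neurons and glia.

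All levels are normalized log2 intensities, a difference is the mean of the ES arrays minus the mean of the NS arrays on that scale, and a call is an adjusted p-value under 0.05 in limma. A gene is represented by its tested probe with the highest mean. The mean over all tested probes of a gene can differ less, and it is given for some genes only. Of 9565 genes, 3610 had over 1 tested probe, and in 147 genes probes were called in both directions. The 3 replicates of each group correlated at 0.9911 to 0.9942 in ES cells and 0.9895 to 0.9962 in NS cells, against 0.7069 to 0.7185 between the groups. The labels do not say that replicates came from separate cultures, so the p-values reflect only how far these samples differ, which may be technical. The mean raw signal was 531, 317 and 332 on the ES arrays and 562, 322 and 471 on the NS arrays, so each group held both brighter and dimmer arrays. E14Tg2A is known as a male, Hprt-deficient line, and probes that bear on this label differed between the groups, though not all alike. The Y-linked gene Eif2s3y was detected on all 3 ES arrays and on no NS array. Uty, also Y-linked, was detected on all 3 ES arrays and on 2 NS arrays. One Hprt probe was detected on all 3 NS arrays, at 5.76 to 5.91, near their lowest detected levels of 5.15 to 5.36, and on no ES array. A second Hprt probe was detected on none of the 6. Differences in the origin of the lines thus cannot be told apart from cell type. The number of probes detected was 13943 to 15619 on ES arrays and 15552 to 16776 on NS arrays. In RNA from whole cultures, fewer cells of a type and less RNA per cell cannot be told apart.

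The gap between the 2 cell types took in most of what the arrays measured. Of 17027 probes, 13175 passed the test (77.4%), 6928 higher (40.7%) and 6247 lower in ES cells (36.7%), and 13281 probes did not overlap between the groups (78%). At least a 2-fold change was called for 6817 probes (40%), 3224 higher (18.9%) and 3593 lower (21.1%). Detection on all ES arrays and no NS array was found for 930 probes (5.46%), and the reverse for 2042 probes (12%). At the other end, 2632 probes had a 95% interval within 0.5 of 0 (15.5%). Counted by gene, 7605 of 9565 passed (79.5%), 3895 higher (40.7%) and 3710 lower in ES cells (38.8%), and at least 2-fold 1848 were higher (19.3%) and 2180 lower (22.8%). These shares are the background for every list below. A gene that no array of a group detected is given as a bound, written "at least". Among the genes named with a fold, 19 were detected on 1 array of the lower group (Cbx8, Cdkn2c, Egr1, Gsta3, Id1, Id2, Klf2, Mgst1, Olig1, Otx1, Rfx4, Sc5d, Slc1a3, Slc7a3, Slc7a7, Slit2, Tdrd12, Tdrkh and Yaf2). Another 10 were detected on 2 (Cdh4, Chac1, Fn1, Id4, Lin28a, Meis1, Nes, Sox4, Sp5 and Srebf1). Their folds use the levels as measured, and raising each array to its lowest detected level would lower them by a factor of 1 to 1.64, the most for Olig1. The even split rests on quantile normalization: scaling each array to its median left 2658 probes higher and 5880 lower, and to its 75th percentile 5234 higher and 7063 lower, so the sign of a small difference depends on the scaling. All 4028 genes called at 2-fold kept their direction under quantile, median, 75th percentile and cyclic loess scaling, and within the brighter and within the dimmer arrays. A call was kept where it passed in the same direction under all 4 scalings. Over all genes, 1553 of the 3895 higher calls and 3353 of the 3710 lower calls were kept. Lower calls were thus kept more often, which is the background for the kept counts below.

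**Figure D1:**
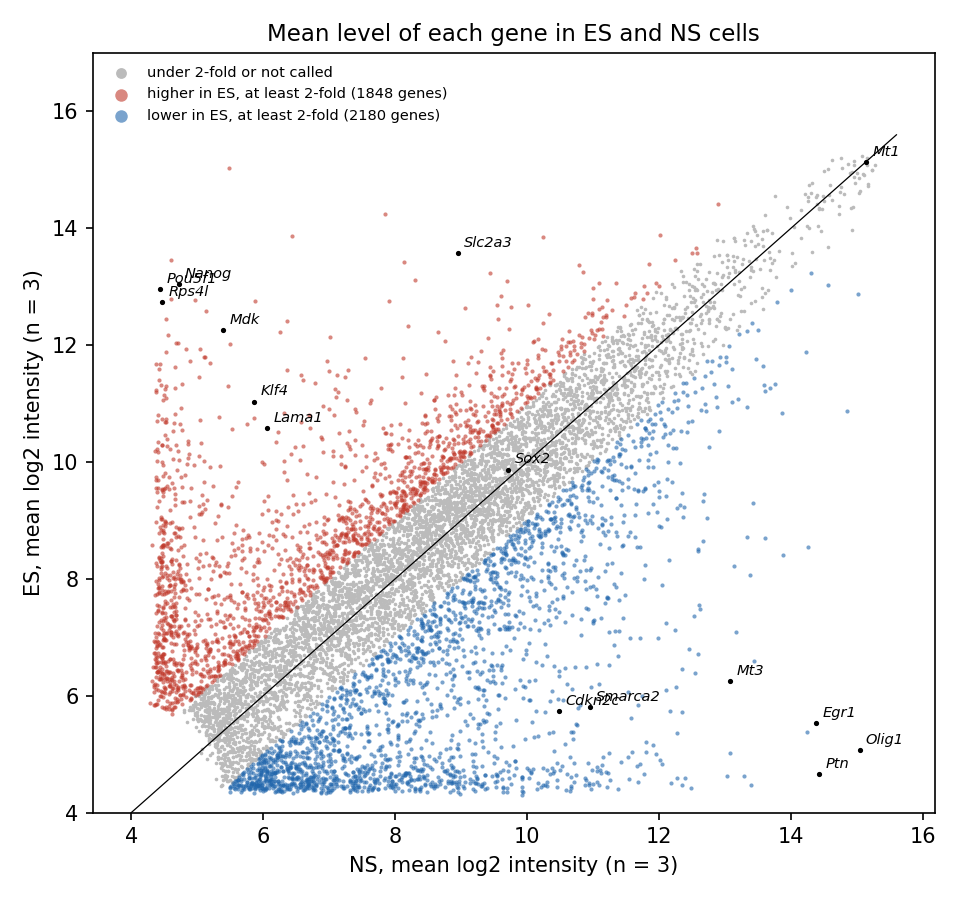
Mean normalized log2 intensity of each of 9565 genes in ES cells (vertical axis, n = 3) and NS cells (horizontal axis, n = 3); the line marks equal levels. The 1848 genes at least 2-fold higher in ES cells are red and the 2180 at least 2-fold lower are blue. Sox2 lies on the line, Nanog and Pou5f1 lie at the upper left, and Olig1, Egr1 and Ptn lie at the lower right.

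Nanog, the homeobox factor that the NS line lacks, checked the labels. It read 13.15, 13.13 and 12.83 on the ES arrays, against 4.79, 4.55 and 4.81 on the NS arrays. The groups did not overlap, and no NS array detected the probe, so Nanog was at least 225-fold higher in ES cells (adjusted p = 2.53e-14). No source used here says whether the probe lies in the deleted part of the gene, so its level does not check the deletion. Pou5f1, the POU factor at the core of the network, read 13.17, 12.76 and 12.96 in ES cells, against 4.53, 4.39 and 4.40 in NS cells, where it was not detected. It was at least 214-fold higher in ES cells (adjusted p = 6.93e-15).

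Sox2, the partner of Pou5f1 and also a core factor of neural progenitors, was the exception. It read 9.83, 9.86 and 9.91 on the ES arrays and 9.72, 9.68 and 9.75 on the NS arrays. The difference of 0.15 did not pass the test (adjusted p = 0.160), and its sign turned under median, 75th percentile and cyclic loess scaling. Klf4, a Krüppel-like factor of naive cells, read 11.40, 10.97 and 10.73 in ES cells, against 5.84, 5.89 and 5.87 in NS cells. Klf4 was 35.99-fold higher in ES cells. Myc, the growth factor-induced oncogene used beside these genes in reprogramming, went the other way. It read 4.57, 5.20 and 4.69 in ES cells, where no array detected it, against 6.32, 7.002 and 6.59 in NS cells. Myc was at least 2.07-fold lower in ES cells (adjusted p = 3.85e-06).

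**Figure D2:**
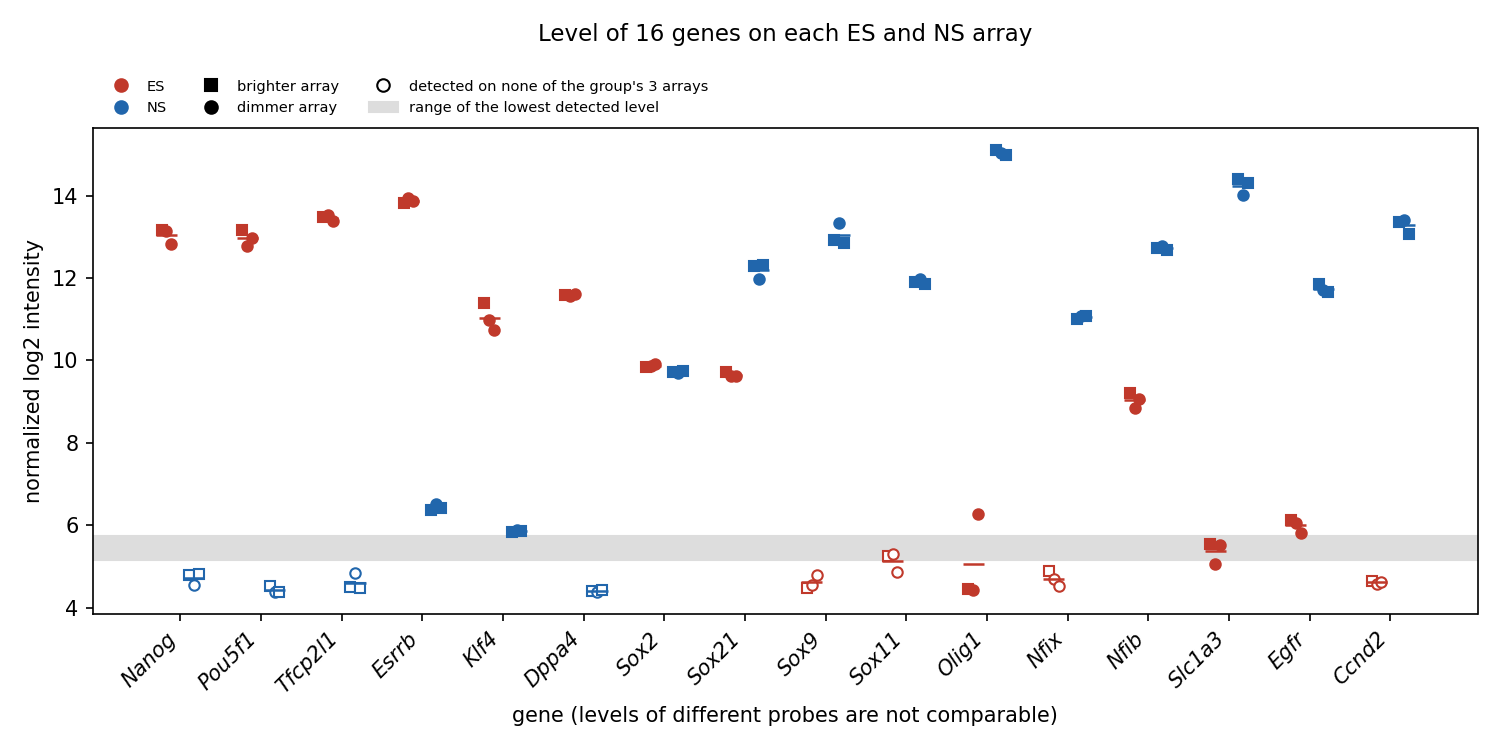
Normalized log2 intensity of 16 genes on each array, ES (red) left of NS (blue), with squares for brighter and circles for dimmer arrays and a bar at each mean. Open symbols mark genes that no array of the group detected, and the grey band spans the lowest detected levels of the 6 arrays, 5.15 to 5.74. Sox2 is level in both groups, while the genes to its left are high in ES cells and those to its right are high in NS cells.

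Promoter sequences are shown for Nanog, Sox2 and Zfp42 because these 3 of the 14 pluripotency factors found in the RefSeq promoter table hold the octamer core, TTTGCAT, on either strand. This is the binding sequence of POU factors. It was present in 4.59% of all 27025 promoters, in 3.34% of the 7781 of measured genes and in 21.4% of the 14, and also in 28.6% of 14 Notch pathway promoters. Each sequence covers 300 bases, from 250 before to 50 after the RefSeq start on GRCm38.p6, with the octamer core in capitals. The Nanog window lies at chr6:122707239-122707538 on the plus strand and the Sox2 window at chr3:34649745-34650044 on the plus strand. The Zfp42 window lies at chr8:43306960-43307259 on the minus strand.
Nanog: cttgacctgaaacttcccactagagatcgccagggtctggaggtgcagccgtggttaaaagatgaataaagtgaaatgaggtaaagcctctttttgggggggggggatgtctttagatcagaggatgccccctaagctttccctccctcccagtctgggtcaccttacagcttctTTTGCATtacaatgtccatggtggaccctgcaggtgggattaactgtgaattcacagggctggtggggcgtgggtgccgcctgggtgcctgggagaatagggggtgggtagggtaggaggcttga
Sox2: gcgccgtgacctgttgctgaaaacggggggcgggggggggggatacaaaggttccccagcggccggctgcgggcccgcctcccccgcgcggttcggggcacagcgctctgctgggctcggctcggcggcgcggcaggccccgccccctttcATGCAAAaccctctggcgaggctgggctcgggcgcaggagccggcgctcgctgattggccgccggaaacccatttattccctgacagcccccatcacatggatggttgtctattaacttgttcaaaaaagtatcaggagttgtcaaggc
Zfp42: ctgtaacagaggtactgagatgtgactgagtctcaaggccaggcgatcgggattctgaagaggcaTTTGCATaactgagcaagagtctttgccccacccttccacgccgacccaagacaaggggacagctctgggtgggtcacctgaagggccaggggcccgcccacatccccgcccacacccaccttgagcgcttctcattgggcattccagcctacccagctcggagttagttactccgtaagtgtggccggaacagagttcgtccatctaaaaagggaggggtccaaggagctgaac
Counted from the start, the motif began at base -75 in Nanog, at -99 in Sox2, where it lies on the opposite strand and is printed as ATGCAAA, and at -185 in Zfp42. Nanog and Zfp42 were detected in ES cells alone, and Sox2 did not pass the test between the groups. A match in these letters does not show that a factor binds there.

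Other transcription factors of naive pluripotency separated the cells nearly as fully as Nanog. Of 25 listed, 20 were measured, and 19 were higher in ES cells and none lower, against a background of 40.7% higher. Of these, 10 passed the filter through ES cells alone, so the median difference of 5.63 (0.04 over all genes) is a description. Tfcp2l1, a factor that LIF induces, read 13.47, 13.53 and 13.39 in ES cells, against 4.50, 4.85 and 4.48 in NS cells, at least 302-fold higher. Esrrb, an orphan nuclear receptor downstream of GSK3 inhibition, read 13.81, 13.95 and 13.87 in ES cells. It was detected on all 3 NS arrays too, at 6.37, 6.53 and 6.42, which made it 174-fold higher in ES cells. Zfp42 (Rex1) was at least 105-fold higher, Sall4 at least 123-fold, Tbx3 at least 63.1-fold and Prdm14, which restrains DNA methylation, at least 13.00-fold. Klf2 and Klf5, relatives of Klf4, were 175-fold and 62.9-fold higher. The smallest changes among those called were Gbx2 at 3.98-fold higher and Sall1 at 1.71-fold higher, both factors that neural tissue also uses, and the call of Sall1 was lost under median scaling.

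Proteins used as markers of pluripotent cells were all higher in ES cells, 23 of 23 measured, with a median difference of 4.10. No NS array detected 16 of them, so these passed the filter through ES cells alone and their direction was set by it. Dppa5a, an RNA-binding protein of the early embryo, had the largest bound of all genes higher in ES cells. Its probe ILMN_3018711 read 15.01, 15.15 and 15.07 in ES cells, against 4.50, 4.62 and 4.37 in NS cells, at least 924-fold higher. This probe differed by 10.58 as measured. It was not the probe counted in the list, where the largest difference by the probes with the highest mean was 9.56. Fbxo15, an Oct4 target long used as a reporter of reprogramming, was at least 187-fold higher, and Dppa4 at least 82.5-fold. Ooep, a maternal-effect protein of the oocyte, was at least 150-fold higher. The list also holds enzymes and carriers: the phosphatase Alpl was 14.99-fold higher, the uridine phosphorylase Upp1 13.9-fold and the glucose transporter Slc2a3 24.7-fold. Lin28a, which blocks maturation of the let-7 microRNAs, was 3.85-fold higher at low levels, 7.25, 7.23 and 7.22 in ES cells against 5.64, 4.91 and 5.32 in NS cells. Mras, a small GTPase, was the weakest member at 1.39-fold higher, a call lost under median and cyclic loess scaling and within the brighter arrays.

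Markers of both labelled cell types were present where the labels put them. All 10 ES cell markers were detected on every ES array, and 8 were below detection on all NS arrays. Their summed linear level was 80240 to 84010 on ES arrays, against 323 to 343 on NS arrays. Of 10 neural stem cell markers, 7 were measured and all were lower in ES cells, with sums of 1377 to 1531 on ES arrays against 39700 to 42130 on NS arrays. Sox1 and Pax6, which help define many NS lines, did not pass the filter. Of 10 neuron markers, 6 were measured, 1 higher and 5 lower in ES cells, with sums of 1890 to 2011 on ES arrays and 5465 to 5701 on NS arrays. The marker higher in ES cells was Stmn2, which made up most of the ES sum, and no NS array detected it. No ES array detected Elavl4 or Rbfox3. Of 8 astrocyte markers, 6 were measured, 5 lower in ES cells and 1 not called. They summed to 1639 to 1758 on ES arrays and 9704 to 14100 on NS arrays, with NS2 lowest. Of 8 oligodendrocyte lineage markers, 5 were measured, 4 lower in ES cells and 1 higher, and no NS array detected the one that was higher. The 5 summed to 301 to 351 on ES arrays and 1855 to 2048 on NS arrays. Of 8 trophectoderm markers, 3 were measured, all of which passed the filter through ES cells alone. They summed to 921 to 988 on ES arrays, against 69.9 to 71.8 on NS arrays, where none was detected. Eomes, Elf5, Krt7, Hand1 and Gata3 did not pass the filter. Of 8 primed epiblast markers, 7 were measured, 5 higher and 2 lower in ES cells. Of 9 fibroblast and 8 primitive endoderm markers, 2 each were measured, which passed the filter through NS cells alone and were lower in ES cells. The primitive endoderm factors Gata4, Gata6 and Sox17 did not pass the filter. Of 6 endothelial markers, 3 were measured, 2 higher and 1 lower in ES cells. No marker of mesoderm, of 2-cell-like cells or of microglia and blood passed the filter. What a minority of other cells in either culture adds to the results was not tested.

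Transcription factors of neural progenitors ran opposite to those of pluripotency. All 12 measured SOX and POU class III factors of neural progenitors were lower in ES cells (36.7% of probes and 38.8% of genes were lower), with a median of -3.45. Of these, 9 passed the filter through NS cells alone. The direction of those 9 was set by the filter, so the count and the median are a description. Sox9, the factor that starts gliogenesis, read 4.48, 4.57 and 4.81 in ES cells, against 12.93, 13.33 and 12.86 in NS cells, at least 175-fold lower. Sox11 and Sox4, factors of newborn neurons, were at least 79.6-fold and 62.6-fold lower in ES cells. Sox21, which counteracts Sox2 targets, differed less, with a clear level in both: 9.71, 9.62 and 9.63 on the ES arrays, against 12.28, 11.97 and 12.31 on the NS arrays, 5.81-fold lower. Pou3f1 (Oct6) was at least 20.2-fold lower and Pou3f3 at least 2.79-fold. Of the octamer-binding factors measured, Pou5f1 was detected in ES cells alone and Pou3f1, Pou3f3 and Pou3f4 in NS cells alone.

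Radial glia genes were lower in ES cells for 27 of 31 measured, with a median of -3.71. Of these, 15 passed the filter through NS cells alone, so their direction was set by the filter and the median is a description. Olig1, a helix-loop-helix factor of ventral progenitors and oligodendrocyte precursors, read 4.46, 4.44 and 6.29 in ES cells, against 15.10, 15.03 and 14.99 in NS cells, 1009-fold lower as measured. One ES array, ES3, detected it, and with each ES array raised to its lowest detected level Olig1 was 617-fold lower. Olig2 was at least 18.04-fold lower. Nuclear factor I proteins open glial genes. Nfix read 4.91, 4.70 and 4.53 in ES cells, against 11.001, 11.07 and 11.09 in NS cells, at least 44.1-fold lower. Nfia was at least 8.57-fold lower. Nfib was well detected in both, at 9.21, 8.85 and 9.07 in ES cells against 12.73, 12.77 and 12.69 in NS cells, 12.9-fold lower. The glutamate transporter Slc1a3 (463-fold as measured, 385-fold with ES arrays so raised), the endothelin receptor Ednrb (at least 224-fold) and the phosphatase receptor Ptprz1 (at least 62.4-fold) were also lower. Nestin (Nes) and vimentin (Vim), filaments of neural progenitors, were 21.2-fold and 5.64-fold lower.

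Of the radial glia genes, 3 went the other way, and 1 of them split a ligand family. Pleiotrophin (Ptn) and midkine (Mdk) are the only members of their family of heparin-binding growth factors, and Ptprz1 is a receptor for both. Ptn read 4.47, 4.83 and 4.66 in ES cells, against 14.50, 14.30 and 14.49 in NS cells, at least 458-fold lower (adjusted p = 3.52e-15). Mdk read 12.26, 12.20 and 12.30 in ES cells, against 5.34, 5.40 and 5.44 in NS cells, 116-fold higher (adjusted p = 4.68e-15). Neither gene overlapped between the groups. Gli2, a Hedgehog effector, was 7.21-fold higher by 1 probe, though its probes disagreed in direction. Id4, an inhibitor of helix-loop-helix factors, was 3.97-fold higher.

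Regional identity factors were sparse, since only 10 of 49 listed passed the filter, and none of the Hox genes listed did. Of these, 4 were higher in ES cells and 5 lower. Otx2, a homeobox factor of epiblast and forebrain, read 8.50, 8.33 and 8.10 in ES cells, against 4.69, 4.70 and 4.42 in NS cells, at least 8.49-fold higher. Its relative Otx1 ran the other way, with 5.63, 5.26 and 5.68 in ES cells against 10.78, 10.74 and 10.70 in NS cells, 37.2-fold lower. Nkx2-2, a ventral progenitor factor, was at least 23.6-fold lower, and Meis1, a Hox cofactor, was 21.2-fold lower. Nkx6-2 and Irx2 were at least 4.89-fold and at least 7.12-fold higher in ES cells.

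Targets of ERK, the kinase that PD0325901 shuts off from upstream, were lower in ES cells for 19 of 20 measured genes, all at least 2-fold, with a median of -3.11. No ES array detected 9 of them, so these passed the filter through NS cells alone and their direction was set by it. Egr1, an immediate early zinc finger factor, read 5.35, 5.52 and 5.71 in ES cells, against 14.53, 14.32 and 14.30 in NS cells, 464-fold lower. Fos was at least 82.3-fold lower and Egr2 at least 17.6-fold. The ERK phosphatase Dusp6 read 8.66, 8.85 and 8.58 in ES cells, against 13.65, 13.81 and 13.34 in NS cells, 29.9-fold lower. Etv4 was 13.7-fold lower, while Etv5, a relative that ES cells also express, was 1.28-fold higher and lost its call under the other 3 scalings and within the dimmer arrays. Myc and Ccnd1 belong to the same list. Only the ES medium is recorded as holding a MEK inhibitor, so the inhibitor and the cell type cannot be told apart here.

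Growth factors and receptors that act upstream of ERK leaned to NS cells. Of 20 measured, 6 were higher and 14 lower in ES cells, with a median of -1.29. The EGF receptor Egfr read 6.14, 6.05 and 5.82 in ES cells, against 11.85, 11.71 and 11.67 in NS cells, 53.4-fold lower. Pdgfra was at least 14.7-fold lower, Fgf1 at least 10.6-fold and Fgfr2 5.86-fold. In ES cells the receptor Kit, for stem cell factor, was 17.6-fold higher, with 12.26, 12.34 and 12.41 against 8.29, 8.21 and 8.09 in NS cells. Its ligand Kitl was not detected in ES cells and lay near the detection limit in NS cells. The PDGF pair was also split: the ligand Pdgfa was 9.42-fold higher in ES cells, and its receptor Pdgfra lower. Fgf4, the autocrine ligand through which ES cells leave pluripotency, was at least 8.45-fold higher. The genes for the ligands FGF2 and EGF did not pass the filter.

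Wnt pathway genes moved both ways. Of 28 measured, 13 were higher and 12 lower in ES cells. Sp5, a direct beta-catenin target, read 12.05, 11.72 and 11.63 in ES cells, against 5.19, 4.60 and 5.51 in NS cells, 104-fold higher. The Wnt-inactivating esterase Notum was at least 20.7-fold higher, the caudal factor Cdx1 at least 10.1-fold and the secreted inhibitor Sfrp1 17.8-fold. Axin2, the most used readout of the pathway, was only 2.72-fold higher: 10.75, 10.85 and 10.95 in ES cells against 9.46, 9.50 and 9.26 in NS cells. The ligand Wnt7a read 4.44, 4.42 and 4.40 in ES cells, against 10.74, 10.48 and 10.78 in NS cells, at least 33.8-fold lower. Wnt5a was at least 29.03-fold and Wnt7b at least 17.4-fold lower, as were the receptors Fzd3 and Fzd2 (at least 6.66-fold and at least 4.55-fold). Fzd5 and Fzd10 were higher in ES cells (12.7-fold and 3.60-fold). Lgr5 and Nkd1, targets in other tissues, were lower in ES cells, at least 1.23-fold and at least 1.34-fold. CHIR99021, recorded for the ES medium alone, raises beta-catenin, and it cannot be told apart from cell type.

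LIF pathway genes moved both ways. Of 13 measured genes, 8 were higher and 5 lower, with a median of 1.51. Socs2 and Socs3, feedback inhibitors that STAT3 induces, were 23.5-fold and 11.4-fold higher. Socs3 read 10.30, 10.43 and 10.47 in ES cells, against 6.79, 7.001 and 6.86 in NS cells. Bcl3 was at least 11.2-fold higher and the kinase Pim1 at least 3.24-fold. By contrast Jak2 and Jak1, which carry the receptor signal, were 7.02-fold and 3.75-fold lower in ES cells, and Stat3 and the receptor Lifr were 1.54-fold lower each.

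Members of the TGF-beta family moved both ways. Of 24 measured genes, 11 were higher and 10 lower in ES cells, and 7 were at background on all NS arrays. Nodal itself read 10.63, 10.66 and 10.90 in ES cells, against 4.53, 4.47 and 4.40 in NS cells, at least 45.4-fold higher. Gdf3, Lefty2, Lefty1, Bmp4 and the Nodal coreceptor Tdgf1 were at least 58.2-fold, at least 35.8-fold, at least 13.3-fold, at least 13.2-fold and at least 7.87-fold higher. The receptor Bmpr1b was at least 12.1-fold lower and Bmpr2 8.69-fold lower. The metalloprotease Bmp1, a collagen-processing enzyme despite its name, was at least 47.3-fold lower, though over all its tested probes the mean log2 difference was smaller, at -4.10. Id1, Id2 and Id3, targets of BMP signalling, were 4.43-fold, 4.60-fold and 5.68-fold lower in ES cells, the opposite of Id4. Notch genes leaned to NS cells, with 6 higher and 10 lower in ES cells of 17 measured, and 2 and 10 of these calls kept under the 4 scalings. The Notch targets Nrarp, Hey1 and Hes5 were 22.8-fold, 13.1-fold and at least 6.41-fold lower. Hes1 did not pass the test (9.67, 9.74 and 9.59 in ES cells against 9.35, 9.80 and 9.44 in NS cells), except without NS replicate 2.

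Adhesion genes moved both ways. Of 19 cadherins and junction proteins, 9 were higher and 9 lower in ES cells, all at least 2-fold. E-cadherin (Cdh1), which holds ES colonies together, read 10.24, 10.18 and 10.15 in ES cells, against 4.69, 4.67 and 4.76 in NS cells, at least 31.2-fold higher. The mean over all Cdh1 probes tested differed less, by 3.19 on the log2 scale. The claudin Cldn4 and the desmoglein Dsg2 were at least 60.8-fold and at least 45.8-fold higher. The claudin Cldn12 was 2.03-fold lower in ES cells, and Cldn7 did not pass the test, except without ES replicate 1. R-cadherin (Cdh4) went the other way, with 5.79, 5.70 and 5.66 in ES cells against 12.41, 12.21 and 12.41 in NS cells, 98.6-fold lower. Over all Cdh4 probes tested the mean difference was smaller, at -5.13. The neuronal adhesion protein Nrcam was at least 12.1-fold lower. Of 8 intermediate filament genes, 4 were higher and 2 lower (2 and 2 kept under the 4 scalings), and the keratins Krt8 and Krt42 were at least 14.3-fold and at least 18.4-fold higher in ES cells. Of 11 integrins, 3 were higher and 6 lower. Itgb4 and Itga3, subunits of laminin receptors, were at least 7.79-fold and at least 4.28-fold higher, and Itgav was 5.33-fold lower.

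The basement membrane was divided between the cells by component. Of 27 matrix genes, 9 were higher and 18 lower in ES cells, with a median of -0.92. Lama1, a laminin chain of the early embryo, read 10.37, 10.60 and 10.76 in ES cells, against 5.85, 6.42 and 5.91 in NS cells, 22.9-fold higher. Nidogens, which link laminin to collagen IV, were higher as well, Nid1 at least 28.6-fold and Nid2 18.9-fold. Fibronectin (Fn1) was 43.3-fold higher. Collagen IV, the main network of basement membranes, was found in NS cells: Col4a1 read 5.01, 4.57 and 5.24 in ES cells, where no array detected it, against 9.53, 9.42 and 9.66 in NS cells, at least 15.4-fold lower. Col4a2 was at least 6.28-fold lower. Matrix proteins of the brain were lower too: brevican (Bcan) at least 96.1-fold, tenascin C (Tnc) at least 38.9-fold and neurocan (Ncan) at least 25.2-fold. The metalloprotease inhibitors split, with Timp1 13.8-fold higher and Timp2 and Timp3 at least 10.4-fold and at least 29.9-fold lower. The plasminogen activator Plat was at least 180-fold lower.

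**Figure D3:**
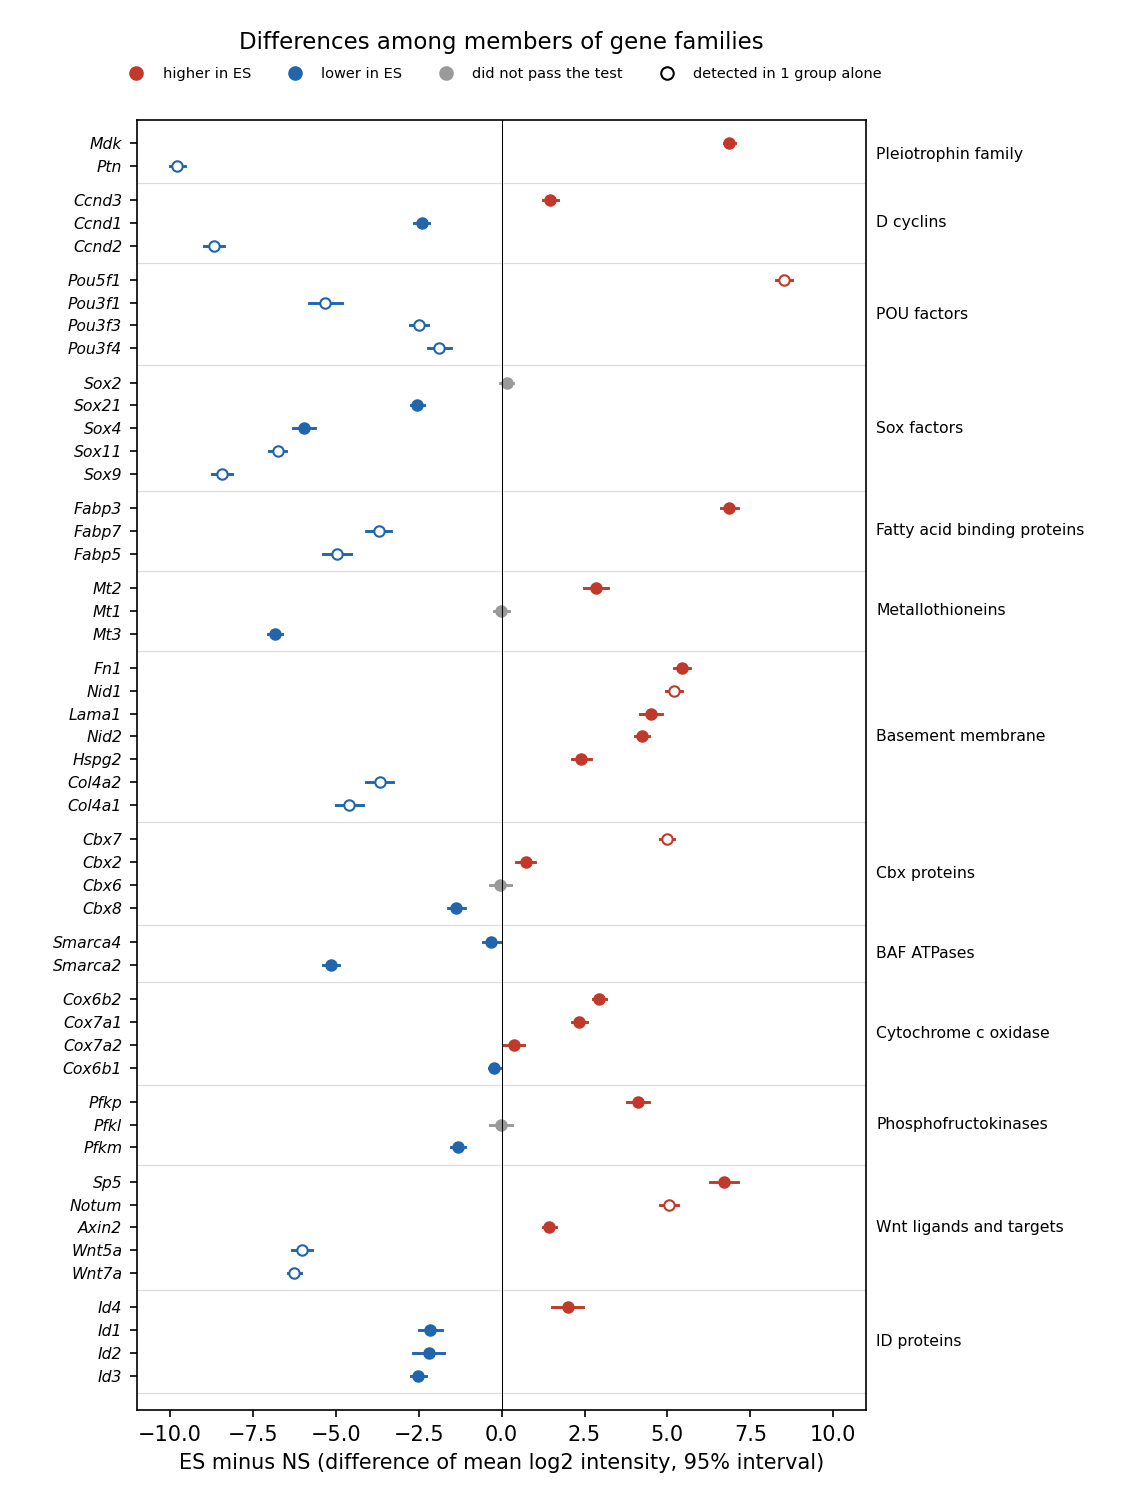
ES minus NS difference (log2, horizontal axis) of 49 members of 13 gene families, as points with 95% intervals. Red points were higher and blue points lower in ES cells, grey points did not pass the test, and open points were at background in 1 group. In most of these families, which were picked after values were seen, members lie on both sides of 0.

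D-type cyclins, which open the G1 phase in response to growth signals, moved apart. Ccnd2 read 4.65, 4.57 and 4.64 in ES cells, where it was not detected, against 13.37, 13.41 and 13.08 in NS cells, at least 208-fold lower. The mean over all Ccnd2 probes tested differed less, by -6.72 on the log2 scale. Ccnd1 was 5.33-fold lower, at 11.19, 11.41 and 11.42 in ES cells against 13.70, 13.81 and 13.74 in NS cells. Ccnd3 was 2.78-fold higher, at 11.88, 12.12 and 11.97 in ES cells against 10.47, 10.70 and 10.38 in NS cells. The CDK4 and CDK6 inhibitor Cdkn2c was 26.8-fold lower and the retinoblastoma gene Rb1 6.59-fold lower. Over all Cdkn2c probes tested the mean log2 difference was smaller, at -3.81. Over the list, 8 of 22 were higher and 12 lower, and 2 and 9 of these calls were kept under the 4 scalings. Among E-type cyclins, Ccne2 was 3.13-fold lower, and Ccne1 was 1.98-fold higher, a call lost under median scaling.

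Several genes that license replication origins were higher in ES cells. Of 28 measured genes of DNA replication and mitosis, 16 were higher and 4 lower, with 10 higher at least 2-fold and none lower. Under the 4 scalings, 8 and 1 of these calls were kept. Orc1, a subunit of the origin recognition complex, read 8.49, 8.13 and 8.19 in ES cells, against 5.46, 5.41 and 5.55 in NS cells, 6.96-fold higher. The loading factor Cdt1 was 3.62-fold higher and helicase subunits Mcm2, Mcm5 and Mcm6 were 2.49-fold, 2.33-fold and 2.29-fold higher. Top2a, Kif11 and Plk1, used in mitosis, did not pass the test, with differences of -0.01, -0.01 and -0.11, though Top2a and Plk1 were called under cyclic loess scaling. DNA repair and p53 genes leaned the same way, with 15 of 25 higher and 5 lower (10 and 5 kept). The mismatch repair gene Msh6 was 5.31-fold higher and the apoptosis gene Bid 6.20-fold higher, while Gadd45g and Bcl2 were at least 12.3-fold and at least 2.52-fold lower.

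Genes that write and read DNA methylation moved both ways, with 7 of 11 measured higher in ES cells and 4 lower. At least 2-fold, 6 were higher and 0 lower, and 6 higher and 3 lower calls were kept under the 4 scalings. Dnmt3b, a de novo methyltransferase, read 11.34, 11.53 and 11.47 in ES cells, against 7.09, 7.46 and 7.18 in NS cells, 18.4-fold higher. Its cofactor Dnmt3l was at least 17.2-fold higher, and the oxidizing enzyme Tet1 6.44-fold. Mbd2, which binds methylated DNA, was at least 26.5-fold higher, at 10.001, 9.93 and 9.92 in ES cells against 5.08, 4.77 and 4.99 in NS cells.

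Polycomb complexes, which hold developmental genes silent through histone marks, differed in many subunits. Of 28 subunits, 16 were higher and 8 lower in ES cells. Cbx7, a reader subunit of the first complex, read 9.81, 9.61 and 9.79 in ES cells, against 4.90, 4.67 and 4.71 in NS cells, at least 22.8-fold higher. Cbx8 was 2.57-fold lower and Cbx6 did not pass the test (difference -0.03), except under 75th percentile scaling and under median scaling with array brightness as a block. Epop and Mtf2, accessory proteins of the second complex, were 35.2-fold and 8.75-fold higher, while the related accessory protein Phf19 was at least 1.87-fold lower. Core subunits differed less: Eed was 5.20-fold and Suz12 2.94-fold higher. The methyltransferase Ezh2 did not pass as reported (10.23, 9.99 and 10.07 in ES cells against 10.31, 10.31 and 10.35 in NS cells). It was called lower under 75th percentile and cyclic loess scaling and in the authors' values. The same call came without background correction, with an offset of 50, with detection on all 6 arrays, with a trended and robust spread, with a replicate block and without ES replicate 1. Rybp was 4.39-fold higher and its relative Yaf2 9.41-fold lower, Phc1 was 4.24-fold higher and Phc2 4.47-fold lower, and Pcgf6 was 5.08-fold higher and Bmi1 3.61-fold lower.

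The BAF remodeller differed most in an ATPase. Of 26 subunits, 4 were higher and 14 lower in ES cells, and 8 did not pass, with 1 and 12 of the calls kept under the 4 scalings. Smarca2 (Brm) read 5.67, 5.86 and 5.89 in ES cells, against 10.99, 10.99 and 10.87 in NS cells, 35.4-fold lower. The alternative ATPase Smarca4 (Brg1) was 1.24-fold lower, a call lost under median scaling, within the brighter and within the dimmer arrays, without ES replicate 3 and without NS replicate 3. Smarcd2 was 3.85-fold higher, and Smarcd3 and Smarcc2 were 3.30-fold and 4.69-fold lower. Of 14 linker histone and histone variant genes, 2 were higher and 8 lower in ES cells (0 and 6 kept). Among such chromatin proteins, the nucleosome binder Hmgn3 was 50.2-fold lower, and the histone genes H2bc4 and H1f2 were 15.02-fold and 13.7-fold lower. Histone-modifying enzymes were higher for 16 of 26 and lower for 3, and 7 and 3 of these calls were kept. Kat6b, an acetyltransferase, was 6.28-fold higher and the H3K4 demethylase Kdm5b 4.95-fold.

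RNA regulators separated the cells with a wide range. Of 11 measured genes of the Lin28 and let-7 axis, 8 were higher and 1, Myc, was lower in ES cells. Igf2bp1, an mRNA-binding protein and let-7 target, read 11.74, 11.69 and 11.60 in ES cells, against 4.46, 4.35 and 4.49 in NS cells, at least 87.6-fold higher. Trim71, a ubiquitin ligase and RNA repressor that let-7 controls, was at least 43.2-fold higher, and Arid3b at least 12.8-fold. Splicing regulators were mixed, 8 higher and 10 lower of 19 (5 and 10 kept under the 4 scalings). Esrp2, which drives epithelial splicing, and Rbm47 were at least 5.71-fold and at least 30.01-fold higher. Celf2, Mbnl1 and Qk were 13.6-fold, 10.8-fold and 4.56-fold lower. Celf2 read 7.76, 7.68 and 7.72 in ES cells, against 11.54, 11.53 and 11.40 in NS cells. Over all Celf2 probes tested the mean log2 difference was smaller, at -2.89. The neuronal proteins Elavl3 and Elavl4 were at least 2.24-fold and at least 2.81-fold lower in ES cells, and Elavl2 was 4.14-fold higher.

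**Figure D4:**
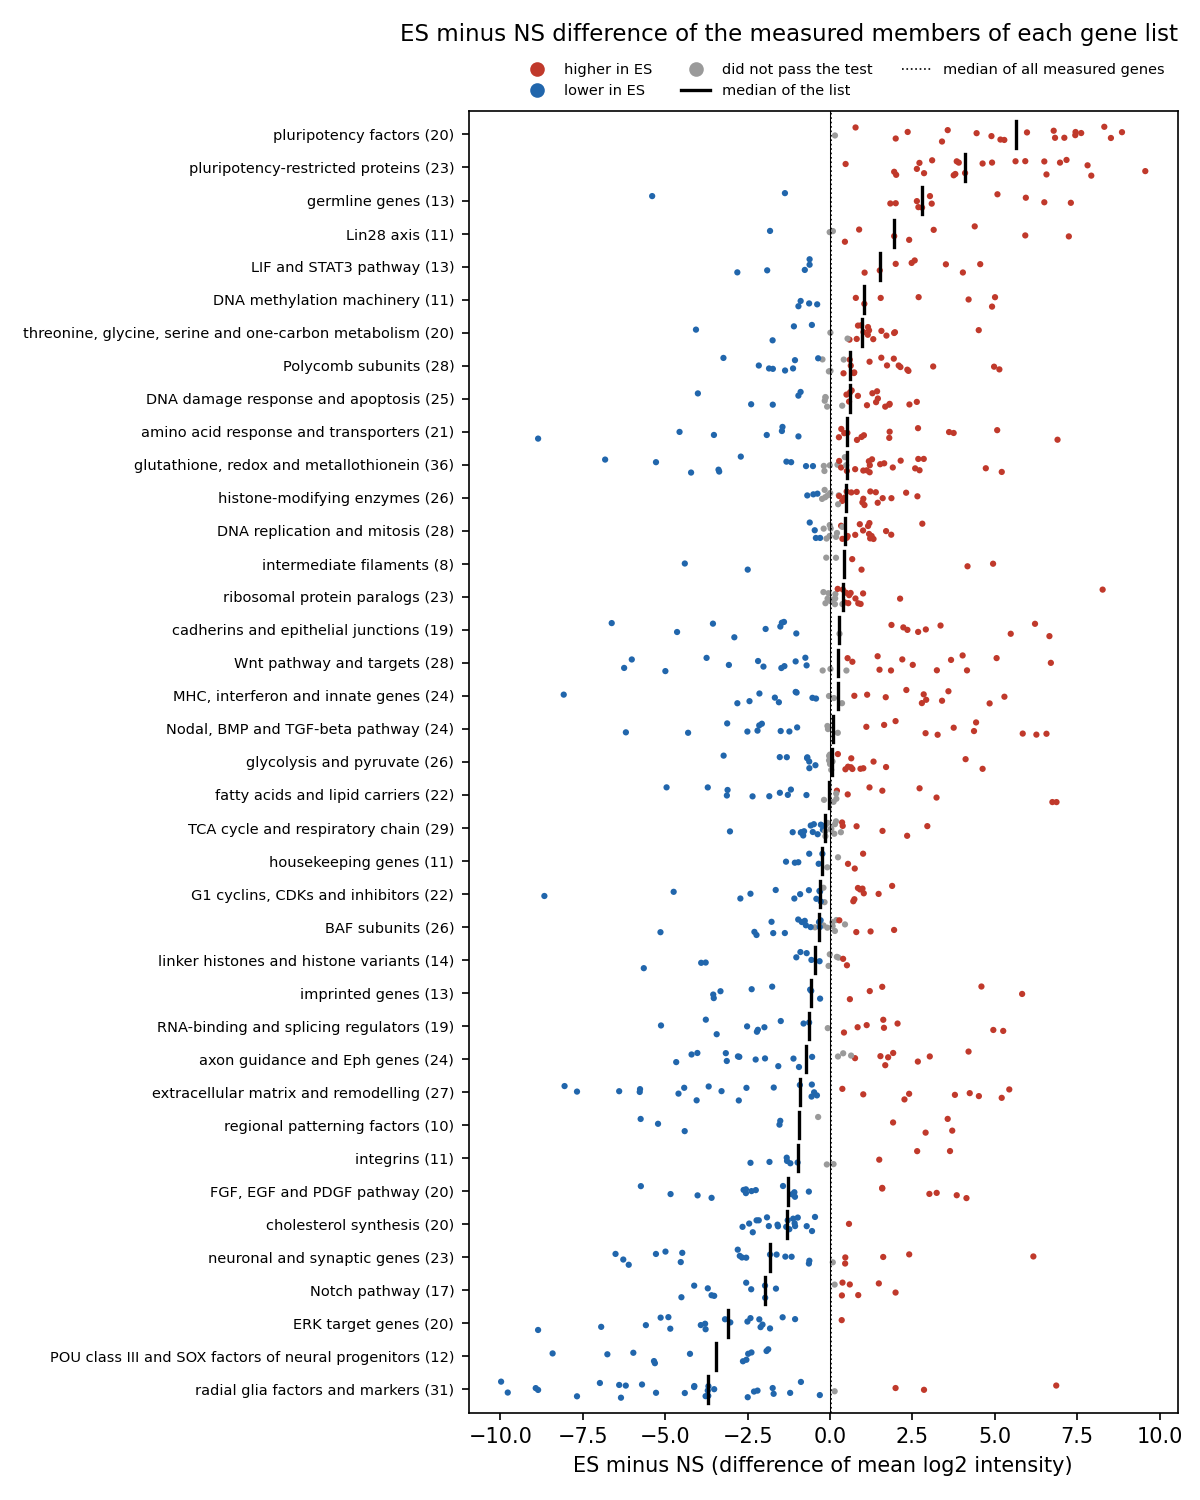
ES minus NS difference (log2, horizontal axis) of every measured member of the 39 gene lists, 1 point a gene, with the number measured in brackets and the median as a bar. Red members were higher and blue lower in ES cells, and grey members did not pass the test. Lists of pluripotency factors and germline genes lie at the top, and ERK targets, SOX and POU class III factors and radial glia genes at the bottom.

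Central metabolism genes moved both ways. Glycolysis genes were higher for 12 of 26 and lower for 8, and 4 and 5 of these calls were kept under the 4 scalings. Slc2a3, the high-affinity glucose transporter, read 13.60, 13.49 and 13.65 in ES cells, against 9.29, 8.41 and 9.15 in NS cells. Pfkp was 17.3-fold higher, at 10.74, 10.54 and 10.77 in ES cells against 6.78, 6.13 and 6.80 in NS cells. Of the other phosphofructokinases, Pfkm was 2.48-fold lower and Pfkl did not pass (difference -0.03). Pfkl was called lower within the brighter arrays and higher within the dimmer arrays. Aldoc, the aldolase of brain, was 9.37-fold lower. Of 29 measured genes of the TCA cycle and respiratory chain, 6 were higher and 13 lower (3 and 7 kept). In the respiratory chain, the testis isoform Cox6b2 and the muscle isoform Cox7a1 were 7.74-fold and 5.06-fold higher in ES cells. Ppargc1a, a coactivator of mitochondrial genes, was at least 4.09-fold lower.

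Sterol synthesis genes were lower in ES cells almost throughout. Of 20 measured genes, 19 were lower in ES cells (38.8% of all genes were), 15 at least 2-fold. All 19 kept the call under the 4 scalings, as did 3353 of 3710 lower calls over all genes. The median of -1.31 is small beside the lineage lists. Mvk, mevalonate kinase, read 5.03, 4.58 and 4.50 in ES cells, where it was not detected, against 7.43, 7.12 and 7.51 in NS cells, at least 3.40-fold lower. Dhcr7, the last step to cholesterol, read 7.71, 7.65 and 7.71 in ES cells, against 10.05, 9.98 and 10.07 in NS cells, 5.08-fold lower. Sc5d, the desaturase before it, was 5.48-fold lower and Cyp51, the lanosterol demethylase, 3.62-fold lower. Ebp, a sterol isomerase, was the exception at 1.49-fold higher, a call lost under the other 3 scalings. Srebf2, the factor that switches the pathway on, was 1.37-fold lower, its partner Scap 3.76-fold and Srebf1, which favours fatty acid genes, 4.48-fold. The lipid supply in the NS medium is likewise unknown here.

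Promoters of 3 of these enzymes are shown because CCAAT, the NF-Y box in either orientation, stood in 15 of the 17 sterol genes found in the promoter table. That is 88.2%, against 37.9% of all 27025 promoters and 39.7% of the 7781 promoters of measured genes. The same box stood in 81.8% of linker histone and histone variant genes, which leaned lower in ES cells. It also stood in 78.9% of one-carbon genes and 76% of replication and mitosis genes, which leaned higher. The sterol regulatory element searched, TCACNCCAC on either strand, stood in 0 of the 17 and in 1.22% of all promoters. Windows lie at chr5:114444019-114444318 on the plus strand for Mvk, at chr9:42264251-42264550 on the minus strand for Sc5d and at chr5:4104648-4104947 on the minus strand for Cyp51, with CCAAT or its complement ATTGG in capitals.
Mvk: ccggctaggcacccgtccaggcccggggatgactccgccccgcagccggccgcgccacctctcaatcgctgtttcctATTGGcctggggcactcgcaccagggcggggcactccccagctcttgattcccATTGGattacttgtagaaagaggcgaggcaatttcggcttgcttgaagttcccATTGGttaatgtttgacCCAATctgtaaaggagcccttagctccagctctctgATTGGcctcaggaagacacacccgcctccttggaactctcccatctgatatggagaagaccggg
Sc5d: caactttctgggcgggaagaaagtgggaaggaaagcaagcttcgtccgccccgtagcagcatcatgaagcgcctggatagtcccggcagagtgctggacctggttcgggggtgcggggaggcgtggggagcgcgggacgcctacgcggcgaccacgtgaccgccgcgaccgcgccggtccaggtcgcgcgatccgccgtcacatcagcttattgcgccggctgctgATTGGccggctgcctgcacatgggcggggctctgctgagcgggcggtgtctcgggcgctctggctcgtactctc
Cyp51: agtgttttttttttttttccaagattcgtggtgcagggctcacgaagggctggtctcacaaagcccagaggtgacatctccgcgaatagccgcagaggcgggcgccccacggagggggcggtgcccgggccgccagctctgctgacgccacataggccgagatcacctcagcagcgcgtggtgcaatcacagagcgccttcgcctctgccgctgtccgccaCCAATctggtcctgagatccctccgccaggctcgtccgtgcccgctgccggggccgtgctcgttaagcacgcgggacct
Mvk held 5 copies in this window, the nearest beginning at base -14, and Sc5d and Cyp51 held 1 each, beginning at -24 and -29.

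Fatty acid genes were less uniform, with 8 of 22 higher and 10 lower. The fatty acid binding proteins moved apart. Fabp3, known from heart, read 12.71, 12.68 and 12.86 in ES cells, against 5.71, 5.85 and 6.08 in NS cells, 117-fold higher. Fabp7, the brain form and a radial glia marker, and Fabp5 were at least 6.07-fold and at least 13.7-fold lower. The desaturases Fads2 and Fads1 were 8.75-fold and 5.10-fold lower in ES cells, and Apoc1 was at least 65.2-fold higher.

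More amino acid genes were called higher than lower in ES cells, but the amino acid response list split evenly among calls kept under the 4 scalings. One-carbon and glycine genes were higher for 14 of 20 and lower for 4, with a median of 0.98, and 8 and 4 of these calls were kept under the 4 scalings. Cth, which makes cysteine, was at least 16.9-fold higher, and Gcat, a step of threonine breakdown, 3.92-fold. Serine synthesis and glycine uptake ran the other way, with Phgdh 3.35-fold and Slc6a9 16.8-fold lower. Of 21 amino acid response genes, 14 were higher and 7 lower (7 and 7 kept). The arginine transporter Slc7a3 read 11.87, 11.95 and 11.99 in ES cells, against 5.38, 4.68 and 5.05 in NS cells, 120-fold higher as measured and 99.6-fold with NS arrays raised to their lowest detected levels. Asparagine synthetase (Asns), Chac1, which breaks down glutathione, and the pseudokinase Trib3 are ATF4 targets, and were 12.2-fold, 13.5-fold and at least 19.9-fold higher. Slc7a11, another target, was at least 1.28-fold lower.

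The promoter of Chac1 is shown because it holds TTGCATCA, the amino acid response element, here searched on both strands. The element stood in 3 of 17 genes of the list found in the promoter table (17.6%), namely Chac1, Slc7a7 and Slc7a11, and in 0.929% of all promoters. The window lies at chr2:119350992-119351291 on the plus strand, with the element in capitals.
Chac1: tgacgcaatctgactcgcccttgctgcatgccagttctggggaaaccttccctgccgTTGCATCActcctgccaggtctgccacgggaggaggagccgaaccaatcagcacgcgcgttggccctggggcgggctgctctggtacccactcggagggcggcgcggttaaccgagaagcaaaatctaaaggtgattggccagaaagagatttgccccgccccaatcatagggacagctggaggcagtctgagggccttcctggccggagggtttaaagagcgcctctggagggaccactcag
It began at base -193. The 3 genes did not move together, since Slc7a11 was lower in ES cells, and Slc7a7 was 2.04-fold higher with a call lost under median scaling.

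Detoxifying genes also changed by family member. Of 36 redox genes, 20 were higher and 10 lower in ES cells. Gstm2 and Gsta3 were 36.99-fold and 26.5-fold higher, and Mgst1 and Gstm5 38.8-fold and 18.6-fold lower. The metallothioneins bind zinc and copper. Mt1 was near the top of the scale in both, at 15.22, 15.18 and 14.99 in ES cells and 15.28, 14.97 and 15.17 in NS cells, and did not pass except under cyclic loess scaling. Mt2 was 7.18-fold higher, and Mt3, the brain form, 113-fold lower, at 6.20, 6.32 and 6.23 in ES cells against 13.004, 12.99 and 13.24 in NS cells.

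Most germline genes did not pass the filter, since only 13 of 40 listed were measured. Of these, 11 were higher and 2 lower in ES cells. The filter was passed through ES cells alone by 8 of the 13, so their direction was set by the filter. Gtsf1l, a relative of a piRNA pathway protein, was at least 87.8-fold higher, Tex19.1, which restrains retrotransposons, at least 37.6-fold and the tudor protein Tdrd12 33.8-fold. Brdt, a testis bromodomain protein, was at least 1.25-fold lower. Tdrkh, a mitochondrial piRNA factor, was 42.1-fold lower, with 5.55, 5.11 and 4.86 in ES cells against 10.56, 10.49 and 10.66 in NS cells. Immune genes split, with 11 higher and 10 lower of 24 measured. Interferon-induced membrane proteins were higher in ES cells, Ifitm3 28.7-fold and Ifitm2 10.5-fold, and the antigen presentation genes H2-D1, B2m and H2-K1 were 7.02-fold, 4.41-fold and at least 2.01-fold lower. Ifitm1 was at least 314-fold higher by probe ILMN_1214071 and 39.1-fold by another. Of 13 imprinted genes, 5 were higher and 8 lower. Phlda2 and Grb10, both growth restraints, were at least 33.5-fold and at least 15.4-fold higher, and Ndn, Mest and Peg3 were 11.7-fold, 11.5-fold and 5.20-fold lower.

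Genes of differentiated neurons were lower in ES cells for 17 of 23 measured and higher for 5 (17 and 3 kept under the 4 scalings), with a median of -1.82. Map2, a dendritic microtubule protein, read 6.25, 6.05 and 6.16 in ES cells, against 12.24, 12.30 and 12.25 in NS cells, 68.9-fold lower, and the glutamate receptor subunit Gria2 was at least 48.9-fold lower. Stmn2, a tubulin-binding growth cone protein, opposed them. It read 10.64, 10.67 and 10.74 in ES cells, against 4.46, 4.57 and 4.51 in NS cells, at least 43.97-fold higher. Tau (Mapt) was 5.28-fold higher. Of 24 guidance genes, 8 were higher and 13 lower. The receptors Epha5 and Nrp1 were at least 12.5-fold and at least 9.96-fold lower, and the ligand Slit2 and the receptor Epha2 were 18.4-fold and at least 5.90-fold higher in ES cells.

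A further set of the largest changes belonged to genes outside these lists. Laptm5, a lysosomal protein of blood cells, read 12.72, 12.88 and 12.75 in ES cells, against 4.41, 4.73 and 4.65 in NS cells, at least 188-fold higher. Lower in ES cells were Rfx4, a regulatory factor of the neural tube (120-fold), the matrix protein Fbln2 (116-fold), the axonal motor Kif1a (at least 112-fold), the reticulon Rtn1 (111-fold by probe ILMN_2758070) and Astn1, used by migrating neurons (at least 109-fold). The same rule also put the Toll receptor partner Tril among the largest changes, at least 120-fold lower. Tril belongs to the list of immune genes above, where it had the lowest difference.

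Genes often taken as constant were not all level. Of 11 controls, 3 were higher and 6 lower in ES cells, and 0 and 3 of these calls were kept under the 4 scalings. Actb was 2.10-fold lower by its probe with the highest mean, at 13.19, 13.17 and 13.37 in ES cells against 14.19, 14.49 and 14.24 in NS cells. The mean over all its tested probes differed less, by -0.56 on the log2 scale. Gusb was 2.52-fold lower and Gapdh 1.46-fold higher, the call of Gapdh being lost under median scaling. Ribosomal protein genes were higher for 13 of 23 and lower for none, 3 at least 2-fold. Of the 13 calls, 3 were kept under the 4 scalings, against 1553 of 3895 higher calls over all genes. Rps4l, a paralog of an X-linked ribosomal gene, differed most. It read 12.59, 12.73 and 12.89 in ES cells, against 4.45, 4.43 and 4.52 in NS cells, at least 183-fold higher. This gene and other members of multigene families, such as histone and H2 genes, have near-identical relatives that 1 probe may not separate.

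**Figure D5:**
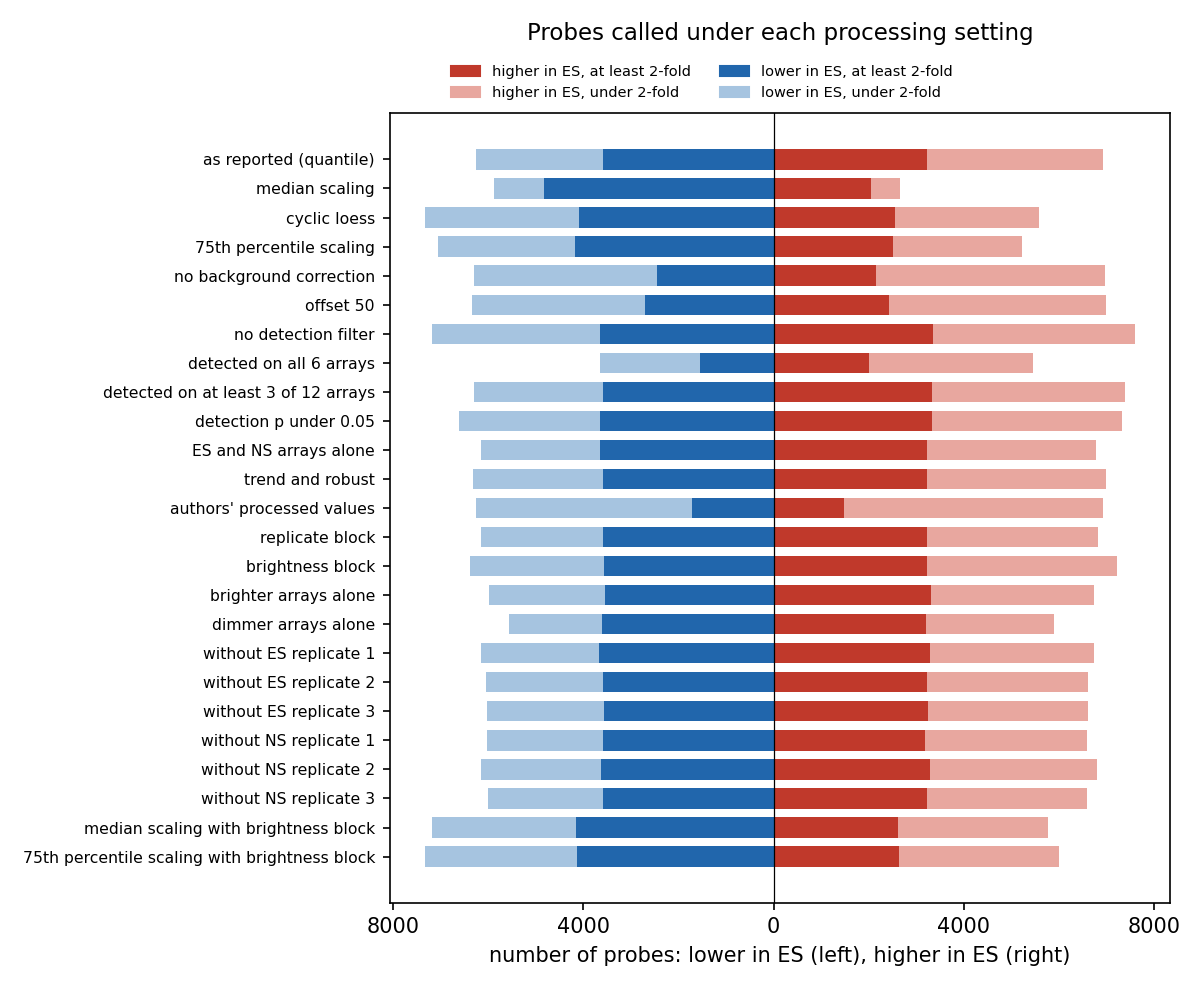
Number of probes called lower (left, blue) and higher (right, red) in ES cells under each processing setting, with changes of at least 2-fold in the dark shade. As reported, 6928 were higher and 6247 lower, and median scaling moved the split to 2658 higher and 5880 lower.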

How the data were processed

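RNA was extracted with RNeasy columns, amplified and biotin-labelled with TotalPrep-96 and hybridised to Illumina mouse arrays, per the labels' protocols. The authors deposited a bead intensity and a detection p-value for each probe and array, not normalized, and a separate table of processed log2 values, with its software not given in the sources used here. Here the deposited intensities were background-corrected and quantile-normalized with neqc (offset 16) in limma 3.58.1 (R 4.3.3) over all 12 arrays. One linear model over the 4 groups gave the ES minus NS contrast with 8 residual degrees of freedom, moderated by eBayes and adjusted by the Benjamini-Hochberg method over 17027 probes, with calls at 0.05. No sample column was left unused (0). The number of arrays limits the precision.

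A probe that no array of a group detected has only a bound there. Its fold was taken against the higher of its own level and the lowest detected level on each array, and is written "at least". The genes named are Nanog, Pou5f1, Sox2, Klf4 and Myc, the 15 largest changes each way among probes whose arrays do not overlap (1 probe a gene, bounded changes ranked by their bound), and members of 39 gene lists and 13 marker lists, each with its counts. The members and lists were chosen with earlier results of these data known. Symbols came from the platform annotation, and promoters from RefSeq. Deviations of same-numbered ES and NS replicates correlated at 0.381, 0.199 and -0.195, not positively in every pair, so the numbers were not treated as pairs. Arrays of like brightness correlated at 0.199 to 0.381 and those of unlike brightness at -0.43 to -0.0943. Alternatives covered scaling, background, filters, blocks, the authors' log2 values and leaving out each array.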

Additional observations from a re-analysis of the deposited data

How the results depend on the processing

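Median scaling left 8538 probes changed and 2658 higher in ES cells, and the cause was not tested. It moved the median difference of all probes by -0.388, against -0.189 under cyclic loess and -0.211 under 75th percentile scaling. With array brightness as a block, an alternative chosen after seeing the data, median scaling gave 12957 changed and 5775 higher. Requiring detection on all 6 arrays left 3640 probes lower and 3559 changed at least 2-fold, because it tests fewer probes and drops those at background in 1 group. The authors' processed values gave 3195 probes changed at least 2-fold, and the cause was not tested. Leaving out each array in turn gave 12602 to 12952 changed, 6594 to 6804 higher, 6008 to 6149 lower and 6790 to 6959 changed at least 2-fold. With a replicate block, 12984 probes changed, and 12912 of the probes called without it were shared. Pfkl, which did not pass the test as reported, was called higher within the dimmer arrays (difference 0.434) and lower within the brighter arrays. Low signal limits genes near background: those that no array of a group detected are given as bounds, and folds of those detected on 1 or 2 arrays there rest partly on levels below detection.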

Other observations

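Some probes chosen after their values were seen bear on the origin of the lines, which all carry the label E14Tg2A, a line known as male and Hprt deficient. The Y-linked Eif2s3y read 10.63, 10.35 and 10.03 on the ES arrays and was detected on all 3, against 4.42, 4.49 and 4.33 on the NS arrays, where it was not detected. It read 9.28 to 9.79 in iPS samples made with mouse Nanog and 8.29 to 8.47 in those made with human Nanog. Uty, also Y-linked, read 6.31, 6.54 and 6.17 in ES cells, detected on all 3 arrays, against 5.18, 5.72 and 4.91 in NS cells, detected on 2. Probe ILMN_2704499 for Hprt, a purine salvage gene, was detected on no ES array, at 5.01, 4.71 and 4.86, and on all 3 NS arrays, at 5.76, 5.79 and 5.91. It read 8.64, 8.61 and 8.51 in mouse Nanog iPS samples and was not detected in human Nanog iPS samples. A second Hprt probe, ILMN_2776552, was detected on no ES or NS array. The reason for these differences was not tested.

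Promoters of genes detected in 1 cell type alone differed in CpG content. A ratio of observed to expected CpG under 0.4 was found in 42.8% of 407 genes detected in ES cells alone and in 24.3% of 794 detected in NS cells alone, against 11.9% of 7781 measured genes and 51% of all promoters. This is a description with no test.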
